A study of Mus musculus with 4 samples.

Results

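Goblet cells, the mucus-secreting cells of the intestinal epithelium, were followed here in single-cell RNA-seq libraries of irradiated mouse small intestine, down to cells with few transcripts. A barcode counted as a goblet cell when it had 1000 or more unique molecular identifiers (UMIs, each standing for 1 captured transcript), 500 or more detected genes and mitochondrial UMIs up to 25%, held at least 2 Muc2 UMIs, carried at least 2% of its UMIs on Muc2, Tff3, Fcgbp, Zg16 and Clca1 together, and less than 10% on the alpha-defensins (Defa genes) and Lyz1. The rule found 513 cells in the KO library and 1419 in the WT library, 1932 of the 9591 barcodes past the filters. Since these genes chose the cells, their levels are described and never tested.

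The KO mice were VilCreIfnlr1fl/fl animals, in which Cre driven by the Villin promoter removes the interferon-lambda receptor gene Ifnlr1 from intestinal epithelial cells. They were set against WT mice, for which the labels give no further allele. All 6 mice, 3 of each genotype, received 11 Gy of gamma rays with head, thorax and upper limbs shielded, and no unirradiated mouse was analysed here. Collection is given as 96 hours after irradiation in the design text and as 3 days in the extraction protocol, which were not reconciled. Age, sex and strain were not given in the labels. Live cells that bound a biotinylated EPCAM antibody and lacked CD45 were sorted, and each mouse was marked by its own oligonucleotide-tagged streptavidin (a hashtag) bound to that same antibody. The 3 mice of a genotype were then pooled into 1 library. Effects of genotype and of pool therefore cannot be told apart. The data come from the first of 2 experiments named in the labels.

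Goblet cells arise from secretory progenitors that express Atoh1, and mature under Spdef. They store the gel-forming mucin Muc2 in granules and release it with the trefoil peptide Tff3, the mucus-binding protein Fcgbp, the lectin Zg16 and the metalloprotease Clca1, which processes mucus. Spink4 is a secreted peptide of the Kazal-type protease inhibitor family, and Itln1 is a lectin made by goblet and Paneth cells. Interferon lambda acts on epithelial cells through Ifnlr1 and Il10rb, whose kinases activate transcription factors and so a set of interferon-stimulated genes.

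The KO library held 110960113 gene UMIs in 7370 barcodes and the WT library 102915321 in 10453, and 28 barcode sequences occurred in both, none of them as a goblet cell in both. KO2 and WT2, which carried hashtags of the same number, stood apart from the other mice: the 28 proliferation genes summed to 3866 CPM (UMIs scaled to the same total in every sum) in the other cells of KO2 and 316 to 320 in KO1 and KO3, and to 2920 CPM in WT2 and 218 to 325 in WT1 and WT3. Counts of genes called between genotypes are given with and without them. The later comparison of Spink4/Itln1-rich and other goblet cells keeps both, with counts of shifted genes given without each. Goblet cells with a single hashtag gave 3055408 to 4628106 UMIs per mouse.

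Markers that the rule had not used were high in goblet cells, and transcripts of other epithelial cells were present too. Agr2, a disulphide isomerase needed for Muc2 folding, had 5797, 8454 and 6210 CPM in goblet cells of KO1, KO2 and KO3, against 7428, 8262 and 6558 CPM in those of WT1, WT2 and WT3 (CPM of all goblet UMIs of the mouse, scaled by edgeR's TMM factors). Spink4 had 10412, 9006 and 11106 CPM in KO goblet cells, against 3954, 9156 and 4895 CPM in WT goblet cells. These are cells with a single hashtag. In plain CPM pooled by library, Agr2 stood at 7451 CPM in the KO and 7191 CPM in the WT ones, against 32.5 CPM in KO and 62.4 CPM in WT cells rich in enterocyte genes and outside the rule. WT goblet cells without a hashtag held less, 2159 CPM of Agr2 and 2788 CPM of Spink4. In single-hashtag goblet cells the 20 enterocyte genes summed to 5050 to 7915 CPM in KO and 7974 to 9671 CPM in WT mice, and the 18 Paneth genes to 4258 to 11943 CPM in KO and 3444 to 6892 CPM in WT mice. Of 18 immune markers 11 were seen in goblet cells at all and Cd3e, Cd3g, Cd79a, Cd8a, Gzmb, Nkg7 and Trdc were at 0; their sum was 3.65 to 15.7 CPM in KO and 5.89 to 52.98 CPM in WT mice. None of the 4 haemoglobin genes had a UMI, and the 7 detected of 13 stromal markers summed to at most 1.51 CPM.

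Beyond the rule genes, Ido1, Fer1l6 and Capn9 were among the transcripts with the widest ratios between goblet cells and the other single-hashtag cells. Ido1, which degrades tryptophan, stood at 957 CPM in goblet cells, against 5.93 CPM in the other cells, pooled over mice, and at 610 to 1517 CPM in goblet cells of each mouse, against 2.87 to 15.1 CPM in its other cells. Fer1l6, of the ferlin family of membrane fusion proteins, stood at 738 CPM in goblet cells, against 8.93 CPM in other cells. The calpain Capn9, a calcium-dependent protease of the digestive tract, stood at 221 CPM, against 1.92 CPM. The other 7 of the 15 with the widest ratios that were no rule genes were Hs3st5, Frmd3, Ttyh1, Bcas1, Tpsg1, Sytl5 and Pla2g10, at 133 to 313 CPM in goblet cells, against 0.693 to 5.62 CPM in other cells. Sytl5 encodes a synaptotagmin-like protein and Pla2g10 a secreted phospholipase. The cells were chosen by their transcripts, so these ratios are a description with no test.

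Depth separated the goblet cells of the 2 libraries. The median KO goblet cell had 25717 UMIs, against 10157 UMIs in the other KO cells, whereas the median WT goblet cell had 5093 UMIs, against 7669 UMIs in the other WT cells. Cells with under 3000 UMIs made up 3.12% of KO goblet cells and 27.5% of WT goblet cells. The 5 rule genes took a median of 39.6% of UMIs in KO goblet cells and 16.0% in WT goblet cells. Mitochondrial UMIs took a median of 2.499% in KO and 10.5% in WT goblet cells, and 6 enterocyte genes (Apoa1, Apoa4, Fabp1, Fabp2, Alpi and Sis of absorptive cells) 0.258% in KO and 2.46% in WT goblet cells.

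**Figure D1:**
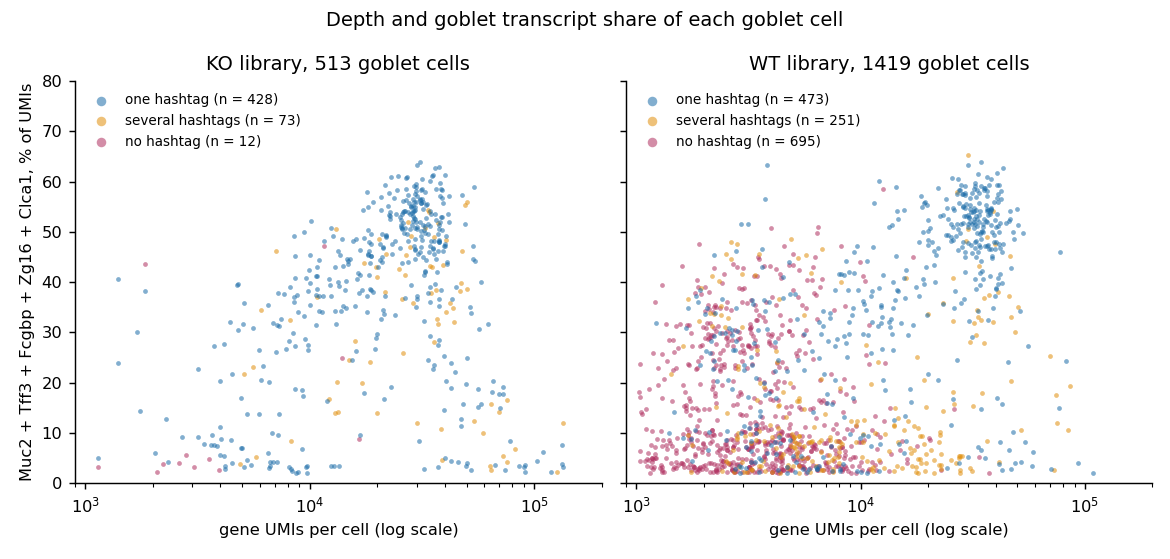
Each point is a goblet cell, plotted by its gene UMIs (log axis) and the percent of them on the 5 rule genes, KO library left and WT library right, coloured by hashtag state. Both libraries hold a dense group of deep single-hashtag cells at high shares, and the WT library also holds 695 cells without a hashtag, most at low depth, with a median of 3302 UMIs.

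The hashtag state of goblet cells ran in opposite directions in the 2 libraries. In the KO library 428 goblet cells carried a single hashtag (83.4%), 73 carried several (14.2%) and 12 carried none (2.34%, exact 95% interval 1.21 to 4.05%), against 24.0% without a hashtag among the other KO cells. In the WT library 473 goblet cells carried a single hashtag (33.3%), 251 several (17.7%) and 695 none (49.0%, 46.3 to 51.6%), against 37.3% among the other WT cells. The share without a hashtag differed by -21.6 percentage points between goblet and other cells in the KO library, and by 11.7 points in the WT library. Another count took every cell without both a 3-fold lead of the highest hashtag and at least 10 hashtag UMIs. That class also holds cells with several hashtags, so it is not the same quantity. For it the differences were -2.62 points in KO and 16.6 points in WT. The intervals cover counting error in 1 library each, and no test between genotypes was possible.

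**Figure D2:**
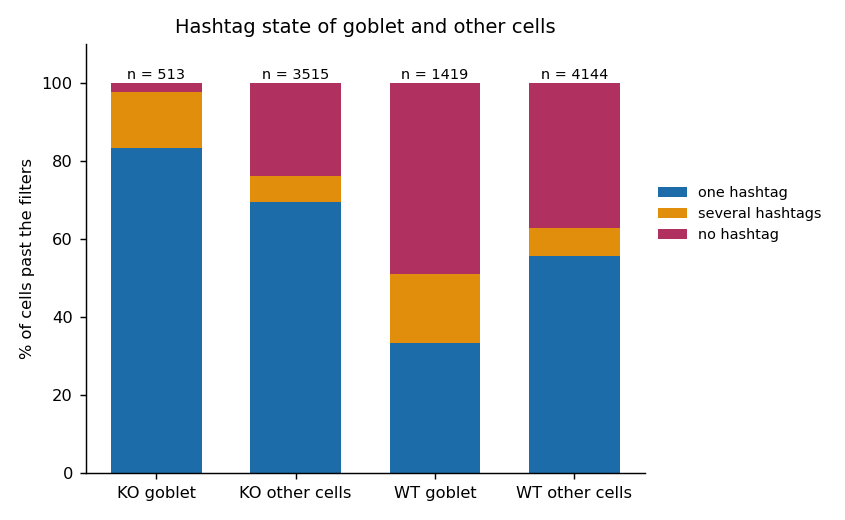
Stacked bars give the percent of goblet cells and of other cells past the filters with a single hashtag, several hashtags or none, for the KO library and then the WT library, with the number of cells above each bar. Cells without a hashtag are 2.34% of KO goblet cells and 49.0% of WT goblet cells.

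The WT cells without a hashtag were shallow and mixed in content. Their median was 3302 UMIs, against 19507 UMIs in WT goblet cells with a single hashtag, and the 5 rule genes took 9.32% of their UMIs, against 38.5% in the single-hashtag cells. Enterocyte genes took 3.11% of their UMIs and mitochondrial genes 12%, against 0.289% and 3.05% in single-hashtag cells. They were not free of hashtag molecules, with a median of 256 hashtag UMIs, against 2061 in single-hashtag cells, and hashtag 3 was the highest in 458 of the 695, hashtag 2 in 217 and hashtag 1 in 20. Epcam itself, the target of the hashtag antibody, stood at 2315 CPM in these cells, against 2006 CPM in single-hashtag cells.

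The contrast with the other cells turned with the share of rule genes. Goblet cells with at least 30% of UMIs on the 5 genes were 344 of the KO goblet cells (67.1%) and 465 of the WT goblet cells (32.8%). Of these, 0.581% in KO and 22.8% in WT had no hashtag, so that in both libraries such cells lacked a hashtag less often than the other cells did, with differences of -23.4 points in KO and -14.5 points in WT. In the WT library 63.4% of the 292 goblet cells at 2 to 5% had no hashtag and 79.8% carried at least 2% enterocyte genes, and between 5 and 30% these shares were 59.6 to 62.9% and 71.3 to 78.4%. In the KO library 13.0% of the 54 cells at 2 to 5% had no hashtag and 16.7% carried at least 2% enterocyte genes.

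Just inside and just outside the limits of the rule, the WT library held far more cells. At 2 to 2.5% of UMIs on the rule genes lay 8 KO and 66 WT goblet cells, and at 1.5 to 2%, outside, 8 KO and 58 WT cells. Exactly 2 Muc2 UMIs were seen in 2 KO and 32 WT goblet cells, and 0 KO and 22 WT cells failed by a single Muc2 UMI alone. Defensins and Lyz1 took 5 to 10% in 12 KO and 19 WT goblet cells, and 4 KO and 15 WT cells at 10 to 15% were left out. In all, 33 KO and 821 WT goblet cells carried at least 2% enterocyte genes.

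Transcripts of goblet genes were also spread through cells that should lack them. A Muc2 UMI was present in 69.7% of the 2957 KO and 59.7% of the 3690 WT cells rich in enterocyte genes and outside the rule, at median depths of 9291 and 7310 UMIs. Per Muc2 UMI, WT goblet cells without a hashtag held 3.84 Tff3, 2.03 Fcgbp and 0.520 Clca1 UMIs. WT goblet cells with a single hashtag held 3.35, 1.95 and 0.565, and WT enterocyte-rich cells outside the rule 4.22, 1.68 and 0.407. Of the nuclear regulators, Atoh1 stood at 9.96 UMIs per 1000 Muc2 UMIs in WT goblet cells without a hashtag, 11.0 in those with a single hashtag and 12.8 in the enterocyte-rich cells. Foxa3 stood at 13.7, 13.6 and 20.0 and Spdef at 8.63, 8.19 and 11.1 in the same order. Among these classes Atoh1, Foxa3 and Spdef were each highest in the enterocyte-rich cells. Both goblet classes pool all shares of the rule genes. Under 10%, the 368 WT goblet cells without a hashtag held 0.466 Agr2 and 11.3 Zg16 UMIs per Muc2 UMI. Spdef stood at 11.9 per 1000 Muc2 UMIs in them. The 80 with a single hashtag held 3.29, 3.90 and 39.7, and the enterocyte-rich cells 0.550, 13.4 and 11.1. Tff3 stood at 3.58, 4.19 and 4.22 and Fcgbp at 2.36, 2.92 and 1.68 in the same order. Among the WT barcodes with several hashtags, 45.7% met the goblet rule, against 23.9% of the KO ones. What part free RNA, barcodes with more than a single cell and cells with many mitochondrial transcripts have in the low-share goblet cells was not tested.

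Only cells with a single hashtag belong to a known mouse, and all comparisons between genotypes rest on those 901 cells. Goblet cells made up 12.8%, 15.4% and 17.0% of the single-hashtag cells of KO1, KO2 and KO3, against 23.9%, 14.8% and 13.5% in WT1, WT2 and WT3. The groups overlapped, and WT1 stood above the other 5 mice. The means were 15.1 ± 2.09% in KO and 17.4 ± 5.69% in WT mice (SD, n = 3 each), a difference of -2.33 points (2-sided exact permutation test, p = 0.7, where 0.1 is the smallest that 3 against 3 allows). Without WT1 the difference was 0.929 points.

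WT1 was also the mouse whose hashtag was least secure. In 49 of its 202 goblet cells (24.3%) another hashtag had more UMIs than its own, likewise in 13 of 128 in WT2 (10.2%) and in none in KO1, KO2, KO3 or WT3; among other cells the shares were 3.58% in WT1 and 3.12% in WT2. These WT1 cells had a median of 2744 UMIs. Over cells that 2 assignment rules gave to the same mouse, the difference was -0.212 points (exact permutation p = 0.8), and with assignment by a 3-fold lead of the highest hashtag it was -6.19 points (exact permutation p = 0.1).

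**Figure D3:**
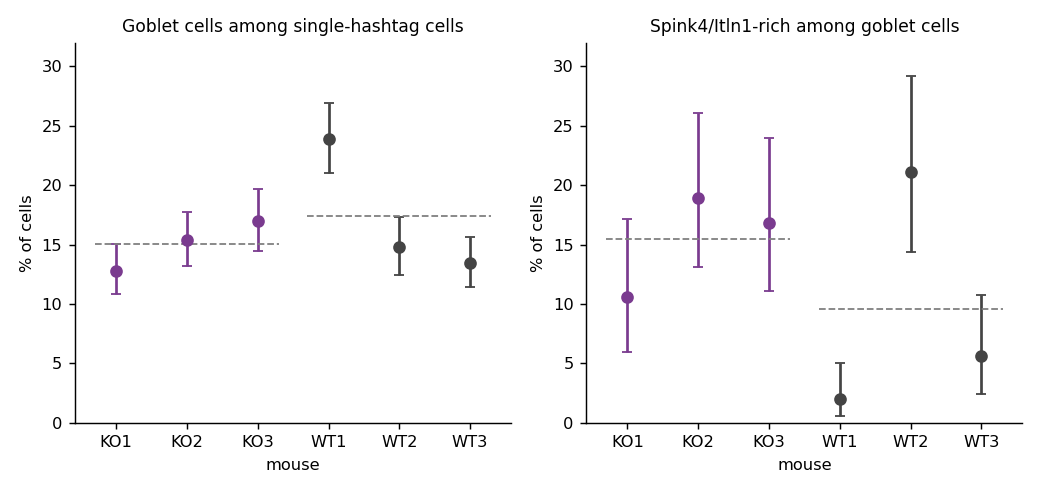
Left, goblet cells as a percent of single-hashtag cells in each mouse; right, Spink4/Itln1-rich cells as a percent of those goblet cells. Points are mice, KO left of WT, bars exact 95% intervals for counting error, and dashed lines group means; WT1 is highest on the left at 23.9% and lowest on the right at 1.98%.

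Goblet cells with at least 1% of UMIs on Spink4 and Itln1 together were called rich, which gave 106 of the 901. Spink4 (chr4:40920052-40931395, coordinates in GRCm38 from the GENCODE annotation) decided the split over Itln1 (chr1:171518122-171535294): 87 passed 1% on Spink4 alone, 19 on each gene, and none on Itln1 alone. Rich cells were 14 of KO1, 29 of KO2 and 24 of KO3, against 4 of WT1, 27 of WT2 and 8 of WT3. As shares these were 10.6%, 19.0% and 16.8% in KO mice, against 1.98%, 21.1% and 5.59% in WT mice, with WT2 above every KO mouse and WT1 and WT3 below them. The means were 15.4 ± 4.33% in KO and 9.56 ± 10.2% in WT (SD, n = 3 each), a difference of 5.89 points (2-sided exact permutation p = 0.4). Without WT2 it was 11.7 points and without WT1 2.10 points. Between 1 and 1.2% lay 4 KO and 9 WT cells, and between 0.8 and 1%, outside, 14 KO and 18 WT cells.

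Rich and other goblet cells were compared within KO1, KO2, KO3 and WT2, the mice with at least 10 cells of each kind. Rich cells were deeper, with median UMIs of 40090, 42831, 39674 and 40682 in these mice, against 21503, 24165, 20209 and 14422 in the other goblet cells. Spink4 stood at 37303, 27098, 30950 and 25262 CPM in them, against 1967, 3235, 3024 and 3869 CPM. They gave less of their UMIs to the 5 rule genes, 29.6%, 11.4%, 35.6% and 6.68%, against 45.5%, 46.2%, 40.7% and 29.6%. The contrast reads the same cells that were split and is a description with no test. A gene counted as shifted when its CPM ratio (1 CPM added) had the same sign in all 4 mice and a median of at least 2-fold; the median over all 2478 genes measured was a log2 ratio of 0.25 toward rich cells.

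Rich goblet cells carried more of many ribosomal protein and several antimicrobial and secretory-pathway transcripts than the other goblet cells, and less Ido1, Mxd1 and Krt20. Of the genes measured, 328 (13.2%) were higher and 111 (4.48%) lower in rich cells. Without KO2 these counts were 337 and 139 of 2437, and without WT2 307 and 106 of 2369. With Spink4, Itln1, the rule genes and the Defa genes taken out of each cell's total, the split was 219 higher and 347 lower of 3463, with a median log2 ratio of -0.12. Of those, 180 and 108 were shifted the same way on the first scale and none the opposite way, so the balance of directions depends on the scale; the genes named below have the same sign on both.

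The largest ratio was that of Mmp7 (chr9:7692090-7699585), the protease that activates alpha-defensins in mouse Paneth cells. It had 2497, 605, 1414 and 770 CPM in rich cells of KO1, KO2, KO3 and WT2, against 6.40, 12.8, 8.77 and 55.6 CPM in other goblet cells. Ang4, a microbicidal ribonuclease of Paneth and goblet cells, had 2230, 230, 1177 and 360 CPM in rich cells, against 18.8, 16.7, 9.97 and 11.4 CPM. For both genes every rich value lay above every other value, and the median log2 ratios were 6.32 and 5.80. Reg4, a secreted lectin-like protein, stood at 657 to 1422 CPM in rich cells, against 28.3 to 83.6 CPM, and Guca2a, the precursor of guanylin that regulates fluid secretion, at 2872 to 4233 CPM, against 144 to 322 CPM.

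A transcription factor, a claudin and a hormone receptor were also among the 15 widest ratios. Sox9, a transcription factor of crypt base and Paneth cells, had 122, 98.1, 107 and 73.2 CPM in rich cells, against 0.853, 11.5, 3.19 and 29.3 CPM in other goblet cells. The pore-forming claudin Cldn2 had a median log2 ratio of 4.14, the growth hormone receptor Ghr 3.37, the chemokine Ccl9 3.52 and the glutathione peroxidase Gpx2 2.94. Rnase1 (4.96), Anxa10 (3.84) and the endoplasmic reticulum prolyl isomerase Fkbp11 (2.80) completed the group with Defa17, Defa24 and Lyz1, which the member rule had limited to 10% of UMIs.

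Summed Paneth transcripts were higher in rich cells, and most of the sum was Defa24, which the member rule limited. The listed genes other than Itln1 summed to 34187, 9697, 21000 and 13660 CPM in rich cells of KO1, KO2, KO3 and WT2. In other goblet cells they summed to 1295, 1095, 1149 and 1840 CPM. Defa24 alone gave 27316, 7582, 16953 and 11181 CPM of the rich sums. Of the 7 measured, 5 were higher, Mmp7, Ang4 and the rule-limited Defa17, Defa24 and Lyz1. Nupr1 (-0.79), Defa21 (-0.46), Defa30 (-0.17) and Gm14851 (-0.12) of the list had negative median log2 ratios, and Defa3 a positive one (4.16). At the level of single cells most rich cells held few defensins: the median share of Defa genes and Lyz1 was 0.534%, 0.0985%, 0.107% and 0.149% in rich cells, against 0.0682%, 0.0593%, 0.0736% and 0.0354%, and 6, 8, 5 and 7 rich cells had at least 1%, against 1, 1, 1 and 2 other goblet cells. With all such cells left out, the median log2 ratio of Mmp7 was 5.03 over the 3 mice that still had 10 rich cells, that of Ang4 2.32 and that of Reg4 3.35. The part of Paneth transcripts in the other differences was not tested.

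Protein folding genes of the endoplasmic reticulum were higher in rich cells. Of 42 measured, 18 were higher and 0 lower, with a median log2 ratio of 0.83 against 0.25 for all genes, of which 13.2% were higher. With the other total, 6.32% of all genes were higher. On that scale Agr2 (0.91), Canx (0.84), Pdia3 (0.84), Sec61b (0.80) and Spcs3 (0.87) fell below the 2-fold limit. So did Ssr1 (0.90), Ssr2 (0.65), Ssr3 (0.81) and Ssr4 (0.68), while the rest of the 18 stayed above it, Hspa5 at 1.22. Hspa5, the main chaperone of that compartment, had 1141, 1286, 858 and 844 CPM in rich cells, against 273, 517, 248 and 386 CPM, and Agr2 had 9946, 17316, 11018 and 16407 CPM, against 4382, 6330, 4333 and 6916 CPM. In both genes no rich value fell within the range of the other goblet cells. The translocon-associated subunits Ssr1, Ssr2, Ssr3 and Ssr4 were among the 18, as were the disulphide isomerases Pdia3, Pdia4, Pdia5 and Pdia6.

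Of the main mucus genes, Zg16, Muc2 and Clca1 were lower in rich cells in CPM. Zg16 had 121921, 69003, 181472 and 62867 CPM in rich cells, against 301952, 260137, 282908 and 255092 CPM, a median log2 ratio of -1.61. Muc2 had a median of -1.12 and Clca1 of -1.17, while Fcgbp (-0.90) and Tff3 (-0.69) did not reach the limit. These genes chose the cells and are described only.

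At the other end, Ido1 had 47.8, 126, 166 and 152 CPM in rich cells, against 1400, 1141, 797 and 964 CPM in other goblet cells (median log2 ratio -2.91). Mxd1, a Max-binding antagonist of Myc found in differentiating cells, had 74.1 to 146 CPM, against 668 to 878 CPM. The keratin Krt20, of villus cells, had 244 to 691 CPM in rich cells, against 1042 to 1683 CPM. Saa1, an acute-phase protein, had the lowest ratio at -3.88, and Cpm, Ly6m, 4930539E08Rik, Ttyh1, Hs3st5, Cldn4, Frmd3, Id1 and Trim15 lay between -2.99 and -2.14. Klf4, a transcription factor of goblet cell maturation, was lower too (-1.14), and Atoh1 was not shifted (-0.51). Among goblet cells with at least 20% of UMIs on the rule genes, only KO1 and KO3 kept enough cells. There Hs3st5 stood at -0.35, Frmd3 at -0.61 and Saa1 at -1.51, while Ido1 (-2.96), Mxd1 (-2.98) and Cpm (-2.83) stayed near their values above. Without that limit Hs3st5 had -1.14 in KO1 and -1.21 in KO3.

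Interferon-stimulated transcripts were also lower in rich cells of the 3 KO mice and of WT2, the WT mouse compared. Of 9 measured, 5 were lower (Ddx60, Oasl1, Parp12, Samd9l and Trim25) and 0 higher, with a median log2 ratio of -1.19; of all genes 4.48% were lower, or 10.0% with the other total. The helicase Ddx60 had 15.5, 9.74 and 26.6 CPM in rich cells of KO1, KO2 and KO3 and 105 CPM in those of WT2, against 123, 116, 96.9 and 301 CPM in the other goblet cells of these mice. All 53 genes summed to 1155, 1263, 1485 and 2383 CPM in rich cells, against 1957, 1687, 1947 and 3699 CPM. Enterocyte genes summed to 2266, 5115, 4517 and 3461 CPM in rich cells, against 7530, 5024, 9343 and 10393 CPM, and 4 of 11 measured were lower, Fabp1, Fabp2 and Rbp2 among them. All but KO2 had less of them in rich cells. Their part in this difference was not tested.

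**Figure D4:**
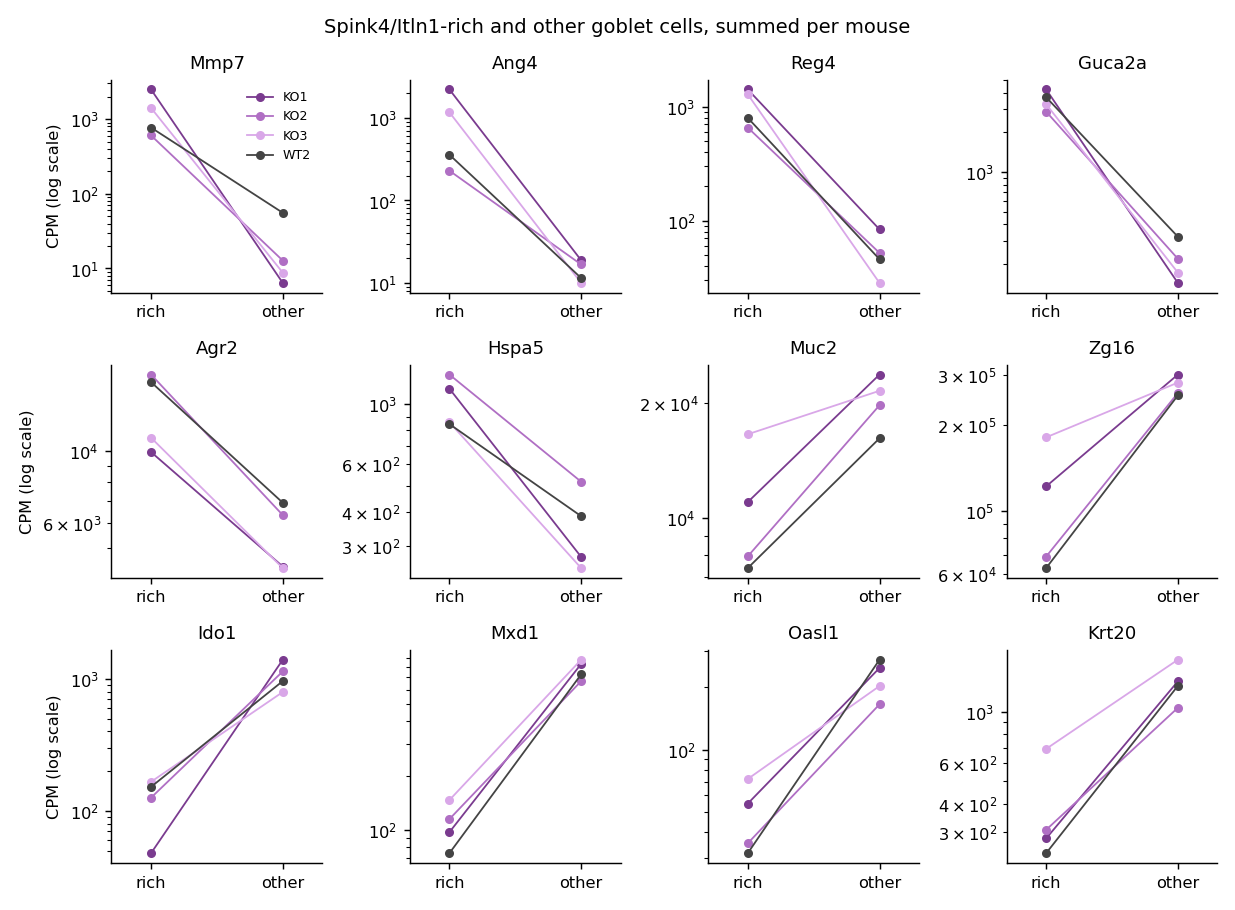
CPM (log axes) of 12 genes in Spink4/Itln1-rich goblet cells, left, and other goblet cells, right, of KO1, KO2, KO3 and WT2, with a line joining the same mouse. Every line falls from rich to other in the top row and for Agr2 and Hspa5, and rises for Muc2, Zg16 and the bottom row.

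Between the genotypes, goblet cells of KO mice had far fewer interferon-stimulated transcripts, and no gene that the member rule had not used was called higher. With goblet cells summed per mouse (edgeR quasi-likelihood test over 9455 genes, Benjamini-Hochberg adjusted p under 0.05), 5 genes (0.0529%) were lower in KO and 1 (0.0106%) higher. The 5 were Ifit1, Isg15, Oasl2, Rtp4 and Trim30d, and the median over all genes was 0.01 on the log2 scale. The gene in the other direction was Defa30, a defensin that the member rule capped, so its call is no result and its values are a description. It had 140, 89.4 and 106 CPM in KO mice, against 35.4, 31.1 and 30.6 CPM in WT mice.

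Ifit1 binds foreign RNA caps and is among the genes most responsive to interferon. It had 0.668, 0.962 and 1.93 CPM in KO1, KO2 and KO3, against 20.7, 29.3 and 41.0 CPM in WT1, WT2 and WT3. The groups did not overlap, and the fitted difference was -4.63 on the log2 scale (SE 0.42, adjusted p = 0.0354). Isg15, a ubiquitin-like modifier, had 18.0, 12.7 and 12.2 CPM in KO mice, against 82.2, 88.0 and 161 CPM in WT mice, at -2.96 (SE 0.32, adjusted p = 0.0354).

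Oasl2, related to the oligoadenylate synthetases that sense double-stranded RNA, had 11.7, 13.5 and 15.2 CPM in KO, against 61.9, 59.6 and 95.2 CPM in WT mice (-2.42, SE 0.24, adjusted p = 0.0354). Rtp4 (chr16:23520291-23614222), a chaperone of receptor transport and an interferon-induced gene, had 2.67, 0.769 and 1.66 CPM in KO, against 19.1, 23.5 and 29.9 CPM in WT mice (-3.90, SE 0.41, adjusted p = 0.0354). Trim30d, of a mouse family of tripartite-motif proteins, had 8.02, 9.23 and 9.94 CPM in KO, against 38.8, 27.4 and 41.4 CPM in WT mice (-1.97, SE 0.22, adjusted p = 0.0368). In each gene the highest KO mouse lay below the lowest WT mouse.

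Each of these calls was lost when any single mouse other than WT2 was left out and at 15% mitochondrial UMIs or less, with the same sign and log2 fold changes of -1.83 or beyond under every alternative run. The labels state no pairing of mice. Hashtag number was taken as a block because mice of equal number deviated together in these same data. The deviations of KO3 and WT1 correlated at 0.350, those of KO1 and WT1 at 0.291. Adjusted p-values with the block are therefore no independent support. Whether the pattern goes beyond the distance of KO2 and WT2 from the other mice was not tested. With the block 71 of 10031 genes (0.708%) were higher in KO and 139 (1.39%) lower. Without KO2 and WT2, 782 genes were called, and without WT2 alone 84. Limiting goblet cells to at least 20% of UMIs on the rule genes gave 281 calls, and limiting them to cells that 2 hashtag rules assigned alike gave 0 in edgeR, with 436 genes at an unadjusted p under 0.05. DESeq2 called 39.

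The promoters of the called genes are shown because the interferon-stimulated response element, to which factors activated by interferon bind, lies near the start of many such genes. The lines give the 250 bases before the RefSeq start of the 4 called genes that the RefSeq table of GRCm38.p6 holds, 5′ to 3′ on the gene's strand, with every match to GAAA, any 2 bases and GAAA, or to the reverse complement, in capitals and overlapping matches run together.
Ifit1, chr19:34640639-34640888, plus strand: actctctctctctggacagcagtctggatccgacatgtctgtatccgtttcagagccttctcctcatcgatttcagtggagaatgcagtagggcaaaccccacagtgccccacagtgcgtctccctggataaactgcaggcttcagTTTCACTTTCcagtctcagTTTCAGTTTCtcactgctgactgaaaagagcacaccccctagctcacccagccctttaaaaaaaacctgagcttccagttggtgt
Isg15, chr4:156200819-156201068, minus strand: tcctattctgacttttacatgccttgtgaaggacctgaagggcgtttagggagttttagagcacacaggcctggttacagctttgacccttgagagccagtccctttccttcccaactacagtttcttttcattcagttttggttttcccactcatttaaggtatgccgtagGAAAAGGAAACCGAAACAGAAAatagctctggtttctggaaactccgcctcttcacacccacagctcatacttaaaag
Oasl2, chr5:114896684-114896933, plus strand: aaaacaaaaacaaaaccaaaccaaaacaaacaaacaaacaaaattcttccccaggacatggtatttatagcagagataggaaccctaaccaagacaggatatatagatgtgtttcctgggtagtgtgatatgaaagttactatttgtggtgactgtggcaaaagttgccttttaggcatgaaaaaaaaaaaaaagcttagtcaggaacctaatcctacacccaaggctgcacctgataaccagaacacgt
Trim30d, chr7:104507850-104508099, minus strand: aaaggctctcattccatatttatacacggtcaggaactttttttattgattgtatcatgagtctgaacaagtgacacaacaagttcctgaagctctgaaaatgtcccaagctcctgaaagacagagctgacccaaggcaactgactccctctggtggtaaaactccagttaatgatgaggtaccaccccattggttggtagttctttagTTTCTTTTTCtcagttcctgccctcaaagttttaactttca

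Ifit1 holds 2 matches, Isg15 3, Trim30d 1 and Oasl2 0. In windows of this length, 978 of 32851 promoters (2.98%) hold a match. Counted by gene, 17 of the 42 interferon-stimulated list genes found in the table (40.5%) have one, against 936 of all 27025 genes (3.46%). A match is a run of letters and not a measured binding site, and the absence of a match in Oasl2 concerns this window only.

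Most of the interferon-stimulated list lay lower in KO goblet cells. Of 43 genes tested, 4 were called lower and 0 higher, 42 had a negative fold change, and the median was -1.21, against 0.01 for all genes. In 35 of the 43 every KO mouse lay below every WT mouse, which held for 485 of all 9441 genes outside the rule (5.14%), while every KO mouse lay above every WT mouse in 430 (4.55%). With the hashtag block 32 of 45 were lower, among them the transcription factors Stat2 (-1.11) and Irf7 (-1.08), the helicase Ddx60 (-1.59) and the synthetase Oas3 (-2.27). Under the other settings 0 to 34 were called lower. Of the 4 most abundant members, Ddx60 had 99.9, 76.1 and 74.9 CPM in KO, against 270, 188 and 308 CPM in WT mice (-1.61, adjusted p = 0.0919) and Ifi27l2b 552, 424 and 607 CPM, against 1269, 818 and 1309 CPM (-1.10, adjusted p = 0.536), while Oasl1 (-0.79) and Trim25 (-0.31) overlapped between the groups. The 53 genes summed to 1770, 1565 and 1810 CPM in goblet cells of KO mice, against 2985, 3239 and 3489 CPM in WT mice.

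The other single-hashtag cells held more of these transcripts in KO1, KO3, WT1 and WT3 and fewer in KO2 and WT2. There the list summed to 2752, 1244 and 2395 CPM in KO mice, against 4498, 2946 and 5581 CPM in WT mice, with KO2 and WT2 lowest in their groups. In goblet cells KO2 was the lowest KO mouse and WT2 lay between the other WT mice. Enterocyte sums were also lower in KO goblet cells. The 20 genes summed to 6304, 5050 and 7915 CPM in KO goblet cells, against 9671, 7974 and 8034 CPM in WT goblet cells, 0 of 20 were called, the median was -0.42, and 8 were lower with the block, against 1.39% of all genes. The part of enterocyte RNA in the interferon-stimulated difference was not tested.

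**Figure D5:**
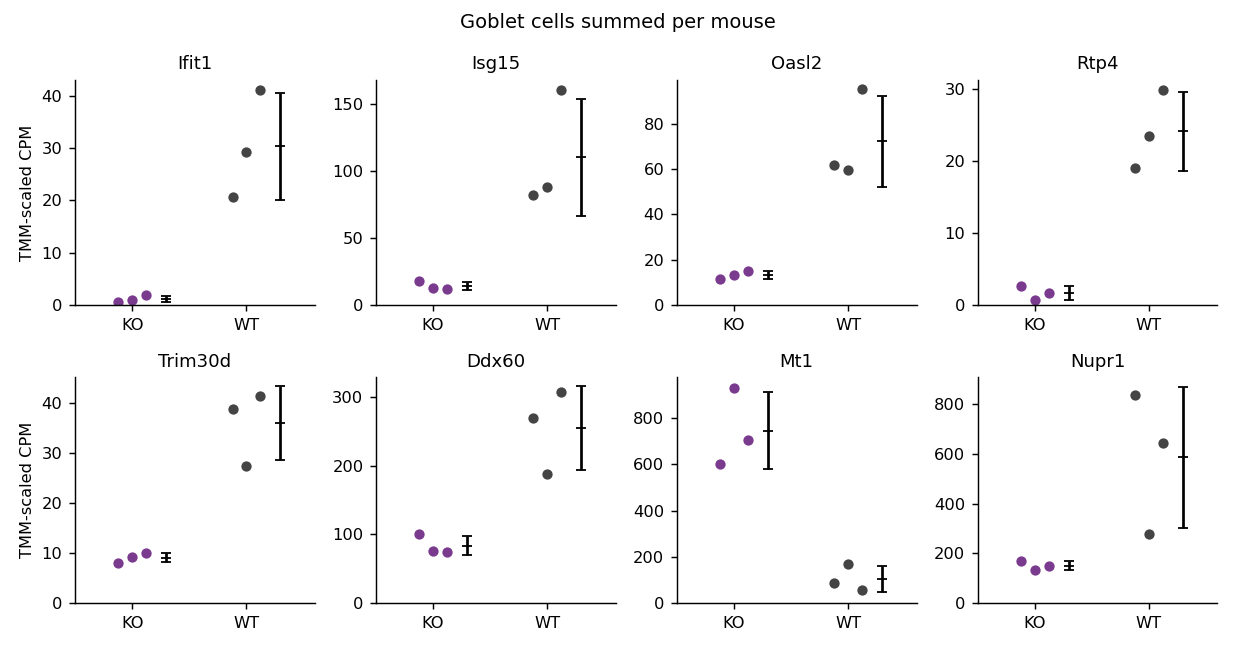
TMM-scaled CPM in goblet cells summed per mouse, KO left of WT; points are mice and bars give the mean ± SD of 3 mice. Ifit1, Isg15, Oasl2, Rtp4 and Trim30d are past the test's threshold; Ddx60, Mt1 and Nupr1 separate the groups without passing it.

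Antigen presentation genes had lower values in KO goblet cells, with no call. All 24 tested had negative fold changes, with a median of -0.61, 7 had every KO mouse below every WT mouse (5.14% of all genes did), and 8 of 26 were lower with the block (1.39% of all genes were). B2m, the light chain of class I molecules, had 324, 250 and 321 CPM in KO goblet cells, against 574, 359 and 519 CPM in WT goblet cells (-0.70, adjusted p = 0.877, with the block 0.0442). Cd74 and H2-Ab1, of the class II pathway, and the immunity-related GTPases Igtp, Irgm1 and Irgm2 were among the 8.

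The targeted gene gave no check of the genotype. Ifnlr1 (chr4:135686287-135708181) had 5.01, 4.62 and 10.2 CPM in goblet cells of KO mice, against 8.02, 6.53 and 7.30 CPM in those of WT mice, and the groups overlapped (-0.14, SE 0.37, adjusted p = 0.962). The libraries count the 3′ ends of transcripts, the deleted exons are not given in the sources used here, and a transcript without them can still be counted. None of the 9 genes for interferon receptors and their kinases was called.

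Among genes outside the member rule with a mean of at least 50 CPM, Mt1 (chr8:94179082-94180327), a metallothionein that binds zinc and copper, had the smallest p-value of those higher in KO. It had 604, 933 and 705 CPM in KO mice, against 87.9, 168 and 57.3 CPM in WT mice, with no overlap, a difference of 2.84 on the log2 scale (SE 0.42) and an adjusted p of 0.0919, or 0.000311 with the block. The cytosolic chaperones Hspa8 (0.92, adjusted p = 0.524) and Dnaja1 (0.64, adjusted p = 0.716) were higher in every KO mouse than in any WT mouse without passing the test. With the block Hspa8 passed (adjusted p = 0.0189) and Dnaja1 did not (0.0529). Dpm3, Gm10076, Mrps21, Cops9, Ndufb1-ps and Prelid2 were also among the 10 smallest p-values in this direction, at 0.45 to 0.98; with the block Dpm3, Gm10076, Mrps21 and Cops9 passed (0.0154 to 0.0445).

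At the other end stood Nupr1 and Areg. Nupr1, a stress-induced nuclear protein, had 167, 133 and 150 CPM in KO goblet cells, against 837, 276 and 645 CPM in WT goblet cells (-1.96, SE 0.39, adjusted p = 0.298, with the block 0.00531). Areg, a ligand of the EGF receptor linked to epithelial repair, had 172, 114 and 153 CPM in KO, against 506, 209 and 477 CPM in WT mice (-1.44, adjusted p = 0.524, with the block 0.00572). Both separated the groups, and WT2 was the lowest WT mouse in each. The amino acid transporter chain Slc3a2 (-0.79), the translation repressor Eif4ebp1 (-1.24), the collagen-binding integrin Itga2 (-0.73) and Herpud1 of protein degradation in the endoplasmic reticulum (-0.59) also had every KO mouse below every WT mouse, with adjusted p of 0.524 to 0.541. With the block Slc3a2, Eif4ebp1 and Itga2 passed (0.0190 to 0.0253) and Herpud1 did not (0.0529).

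Transcripts of the goblet markers Spink4 and Agr2 and of Itln1 showed no difference past the test in the main fit. Muc2, described only, had 21189, 14525 and 19721 CPM in KO mice, against 20361, 10585 and 23995 CPM in WT mice. Spink4, whose values stand above, differed by 0.76 on the log2 scale (SE 0.39, adjusted p = 0.931), and Itln1 1.41 (SE 0.51, adjusted p = 0.895), with 3048, 606 and 1846 CPM in KO, against 652, 749 and 672 CPM in WT mice. In both genes KO2 or WT2 broke the order of the groups, and without rich cells the values were -0.19 and -1.03; rich cells are chosen by these 2 genes, so that setting removes their highest cells by construction. For Agr2 the difference was -0.12 (SE 0.31, adjusted p = 0.962).

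Lists of goblet cell function were likewise without a call. None of 27 further goblet genes was called (median -0.12), none of 31 mucin glycosylation genes (-0.20), none of 46 endoplasmic reticulum folding genes (-0.01), none of 18 secretory lineage regulators (-0.08) and none of 16 secretion and granule genes (-0.08). With the block 1 was lower among the further goblet genes, the calpain Capn8 (-0.69, adjusted p = 0.0457), and 1 among glycosylation genes, the fucosyltransferase Fut2 (-1.13, adjusted p = 0.0252). Of 19 antimicrobial and defence genes 0 were called, and with the block Duox2 and its maturation factor Duoxa2, which produce hydrogen peroxide, and Saa1 were lower (-1.06, -1.14 and -0.66).

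Death, damage and division genes gave the same count. None of 20 pyroptosis and inflammasome genes was called (median -0.08), and with the block Casp4, the sensor of cytosolic lipopolysaccharide, was lower (-0.78, adjusted p = 0.0242). None of 22 p53 targets was called (-0.04), and Cdkn1a, the cell cycle inhibitor among them, had 475, 286 and 453 CPM in KO, against 540, 282 and 505 CPM in WT mice. None of 26 proliferation genes was called, although 23 had positive fold changes with a median of 0.60; their sums in goblet cells were 815, 1320 and 376 CPM in KO, against 309, 1319 and 312 CPM in WT mice, high in KO2 and WT2 alike. Of the Paneth list 5 genes lay outside the rule and none was called; with the block Gm14851 was higher (2.40) and Nupr1, named above, lower.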

How the data were processed

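Gene and hashtag UMI counts per barcode were analysed as deposited by the authors, without normalization; the submitters' processing notes name Cell Ranger 7.0.1, mm10 and Seurat 4.1.0, and whether intronic reads were counted is not given in the sources used here. The members, the 23 gene lists and the tests were chosen with earlier results of these data known, and the bins of the rule genes' share after values were seen. HTODemux of Seurat 5.3.0, at a quantile of 0.99, gave each barcode its hashtags, with all barcodes entered. Barcodes with several hashtags enter the account of hashtag state and no comparison between mice; no other doublet caller was run, so doublets within a mouse remain. Single-hashtag goblet cells were summed per mouse and tested with edgeR 4.0.16 (TMM, filterByExpr, quasi-likelihood F test, Benjamini-Hochberg threshold 0.05; R 4.3.3). DESeq2 1.42.0, a block on the hashtag number, other filters and leaving out each mouse were alternatives. Single genes are in TMM-scaled CPM between genotypes, and list sums and rich against other cells in plain CPM, so levels of the kinds are not comparable. Shares per mouse were compared by exact permutation, and single shares have exact Clopper-Pearson 95% intervals, which cover counting error only.

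The labels state no pairing of mice. Hashtag numbers were treated as pairs because the deviations of goblet log CPM from the genotype means correlated above 0.1 in each of the 3 pairs, over genes (0.291, 0.671 and 0.420 for numbers 1, 2 and 3). KO3 with WT1 (0.350) and KO1 with WT3 (0.225) correlated too. Since the mice of a genotype shared a pool, p-values compare mice within 2 pools. Between genotypes the text names the 10 smallest p-values in each direction at a mean of at least 50 CPM, the called genes, the goblet markers and up to 4 abundant genes a list; between rich and other cells the 15 widest ratios in each direction; between goblet and other cells the 15 widest at 100 CPM or more; list members called with the block were named after their values were seen. The second experiment was not analysed here, and a few genes that these rules name are not reported here.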

Additional observations from a re-analysis of the deposited data

Results flagged for a closer look

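Goblet cells by the rule occurred outside the single-hashtag cells that the comparisons between mice use. In the KO library 23.9% of the 305 barcodes with several hashtags met the rule (exact 95% interval 19.3 to 29.1%), where a count of 3 would make 0.984%. Among the 855 KO barcodes without a hashtag 1.40% did (0.727 to 2.44%, 3 counts make 0.351%), against 14.9% of the KO barcodes with a single hashtag. In the WT library the rule held for 45.7% of the 549 barcodes with several hashtags (41.5 to 49.99%, 3 counts make 0.546%) and for 31.0% of the 2241 without a hashtag (29.1 to 33.0%, 3 counts make 0.134%), against 17.1% of the WT barcodes with a single hashtag. Barcodes over the mitochondrial limit also held such profiles. They were 0.530% of 2642 in KO (0.290 to 0.887%, 3 counts make 0.114%) and 3.26% of 4263 in WT (2.75 to 3.84%, 3 counts make 0.0704%), with medians of 4659 UMIs in KO and 5913 UMIs in WT.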

How the results depend on the processing

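The count of genes called between genotypes, 6 with the rule-limited Defa30, was the least stable result. It was 210 with the hashtag number as a replicate block, 36 without a count filter, 0 to 84 with a mouse left out (84 without WT2, 0 for each other mouse), 782 without KO2 and WT2, 0 at 15% mitochondrial UMIs or less, 42 and 281 with at least 5% and 20% of UMIs on the rule genes, 0 over cells that both hashtag rules gave to the same mouse, 1 with defensins under 1%, 27 without rich cells and 39 in DESeq2 (9 higher, 30 lower). At an unadjusted p under 0.05, 470 genes passed. Rule genes left out of the counts, at least 3000 UMIs and the 3-fold hashtag lead gave 6, 7 and 4. At 0 calls, 239 to 427 genes passed the unadjusted threshold with a mouse left out, 421 at 15% mitochondrial UMIs and 436 under both hashtag rules. Among genes named beside their p, the calls that the block changed stand in the text; shares and ratios have no blocked fit. The settings without KO2 and WT2, without rich cells, without rule genes, at 20 or 30% on the rule genes and with both hashtag rules were chosen after seeing the data.

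The goblet share of KO minus WT was -4.29 to 0.929 points with a mouse left out, and positive only without WT1. The rich share difference kept its sign, at 2.10 to 11.7 points with a mouse left out. Genes shifted in rich cells were 202 of 2215 (9.12%) by a split at the pooled median and 161 of 530 (30.4%) at a mean of 200 CPM, against 17.7% of 2478. At 20% of UMIs on the rule genes they were 350 of 2078 (16.8%), over KO1 and KO3 only. The unassigned share of goblet minus other cells was -27.8 points in KO and 6.30 points in WT with no mitochondrial limit. In WT it was 7.27 points at 3000 UMIs and -14.5 points at 30% of UMIs on the rule genes. Counted as cells without both a 3-fold hashtag lead and 10 hashtag UMIs, a differently drawn class, it was -2.62 points in KO and 16.6 points in WT. Spink4 between genotypes turned to -0.19 and Itln1 to -1.03 without rich cells, which by construction removes the cells highest in both, and Itln1 to -0.86 at 20% on the rule genes. Other causes were not tested. Among values of named genes between genotypes under alternatives, 385 kept sign and side of the threshold, 84 passed only there, 41 passed no longer and 3 turned. Low-depth cells limit what can be read: 3.12% of KO and 27.5% of WT goblet cells had under 3000 UMIs.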

Other observations

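Single-hashtag goblet cells with under 10% of UMIs on the rule genes differed from those with at least 30% in some regulators and products. The low-share bin held from 10 cells in WT3 to 49 cells in WT2. The bins were chosen after values were seen and use the rule genes, so no test is given. Levels here are CPM of the UMIs that fall on genes other than the 5 rule genes, so they cannot be set beside CPM given elsewhere. Atoh1 was lower under 10% in all 6 mice, at a mean over mice of 90.9 CPM, against 422 CPM at 30% or more, and Klf4 likewise at 448 CPM, against 1394 CPM. The calcium-binding protein S100a6 was lower in all 6 mice too, at a mean of 3961 CPM under 10%, against 16535 CPM. In KO1 it was close to level, at 15056 CPM under 10%, against 16217 CPM. The other 5 mice had 607 to 5058 CPM under 10%. Guca2a was higher under 10% in 5 of 6 mice, at 2031 CPM, against 418 CPM. The list of secretory lineage regulators summed lower under 10% in all 6 mice, at a mean of 2300 CPM, against 4667 CPM. Its members did not all move alike. Sox9 was higher under 10% in 4 of 6 mice, at 91.2 CPM, against 28.1 CPM. Creb3l1 was higher in 4 of 6 mice too, at 219 CPM, against 160 CPM, and Foxa1, Foxa2 and Gfi1 each in 2 of 6.

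Transcripts of division were high in the low-share cells of KO1, KO2 and WT2. Top2a, a topoisomerase of dividing cells, had 294, 113 and 4.12 CPM in the low-share goblet cells of KO1, KO2 and KO3, and 0, 119 and 0 CPM in those of WT1, WT2 and WT3, against 1.25 to 5.39 CPM in the high-share cells of all mice. The low-share cells of WT1, 21 in number, held the absorptive list at 47801 CPM and Agr2 at 568 CPM, against 12527 and 13243 CPM in its high-share cells. In CPM of all UMIs, WT3 goblet cells held the enteroendocrine list at 1669 CPM and goblet cells of the other 5 mice at 257 to 435 CPM. On the scale without rule genes, the 18 WT3 cells with 10 to 30% on the rule genes held it at 22633 CPM, against 57.3 and 600 CPM below and above that range.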
